A study of Danio rerio with 15 samples.

Results

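The Yap pathway was followed along the zebrafish caudal fin through 9 genes: the coactivators yap1 and wwtr1 (the gene for Taz), the angiomotin-family genes amotl2a and amotl2b, and the matricellular and ankyrin-repeat target genes ctgfa, ctgfb, cyr61, ankrd1a and ankrd1b. They were taken by symbol from the authors' deposited tables, in which each of the 9 symbols matched 1 gene among 23926 gene IDs, and all 9 were present in each of the 3 pairwise tables. The fish were of the AB WT strain, and fin tissue was cut at 3 positions, proximal, middle and distal, with 5 libraries for each; their age is not stated by the labels. Every library was made from total RNA of a pool of 4 fish, 2 male and 2 female, depleted of ribosomal RNA and read as paired ends of 50 bp. Whether the regions of one pool came from the same fish as those of another position is not stated.

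Yap and Taz are transcriptional coactivators that bind Tead transcription factors and respond to cell density, tension and contact. The Hippo kinase Stk3 acts on Lats1 and Lats2, which phosphorylate Yap and Taz and keep them out of the nucleus. Angiomotins such as Amotl2 bind Yap and Taz at junctions and in the cytoplasm. Nuclear Yap and Taz raise transcripts of a set of well-known targets, among them the secreted CCN proteins Cyr61 and Ctgf, Ankrd1 and Amotl2 itself, so that amotl2 genes are both inhibitors and targets. Yap activity is set mainly at the protein level, and neither phosphorylation nor localization was measured here. The fin is a tissue of dermal bone rays, fibroblasts, vessels and nerves under a stratified epidermis, and in bulk RNA of such a tissue fewer cells of a type and less RNA per cell cannot be told apart.

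The authors' tables hold 1 mean per position, as counts divided by a size factor, called normalized counts below. The count of each gene in each library was recovered from these means as described under the processing. Values per library, and means with SD, use 1 set of size factors over all 3 positions, from the authors' deposited table of monotonic genes. Means without SD that are credited to the authors' deposited table keep the scale of that pairwise table. The 2 scales differ slightly: the proximal mean of yap1 was 2766 on the first and 2695 in the distal against proximal table. The libraries held between 9914166 and 13436711 recovered reads, and their size factors ran from 0.829 to 1.17. Libraries are numbered within a position by rising size factor, a name only, and distal library 1 was the shallowest. Among the markers of position and tissue, and1, which encodes an actinotrichia protein of the fin tip, averaged 6.55 normalized counts proximally and 1910.2 distally in the authors' deposited table. A gene was called where the authors' DESeq p-value, adjusted over their whole table, was under 0.05. Values with SD are over 5 libraries, and an error of a fold is the standard error of limma's log2 estimate from the recovered counts.

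Distal levels of ankrd1a, ctgfb, amotl2b and wwtr1 were higher than proximal ones, yap1 was called in no comparison, and none of the 9 genes was called lower distally. In the distal against proximal comparison 4 of the 9 genes were called higher and 0 lower, where 36% of all 23404 genes tested were called, 17.9% as higher and 18.1% as lower. In the distal against middle comparison 5 were called higher and 0 lower, against a background of 26.2%, with 13.3% higher and 12.9% lower. In the middle against proximal comparison 1 was called, amotl2a, as lower, against a background of 7.31%, with 3.51% higher and 3.8% lower. The median log2 fold over the 9 genes was 0.35 (all genes -0.04) distal against proximal, 0.32 (all genes -0.02) distal against middle and -0.10 (all genes -0.01) middle against proximal. The 3 comparisons share their libraries, so a distal level enters 2 of them.

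**Figure D1:**
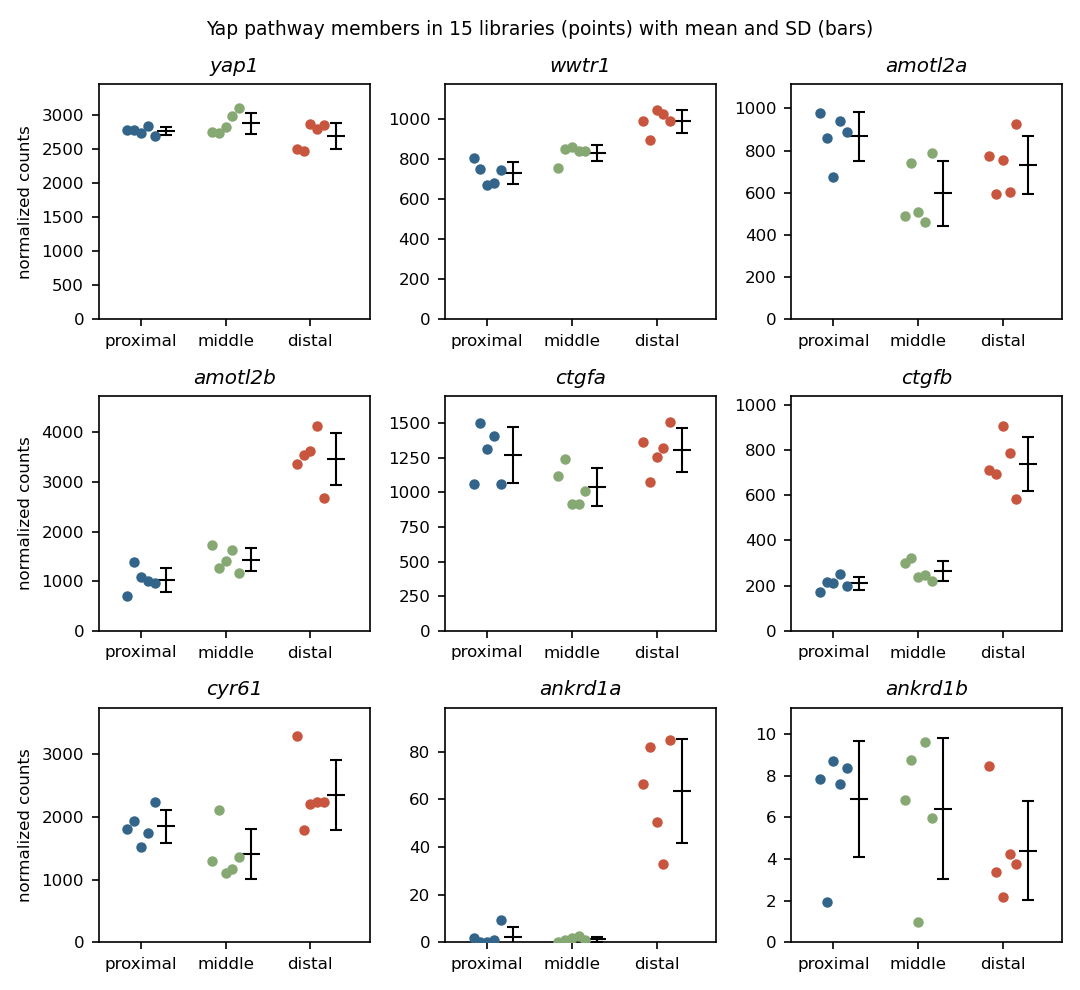
Normalized counts of the 9 genes in each of the 15 libraries (points, in the order of library number) with the mean and SD over 5 libraries per position (bars), each panel on its own linear axis from 0. Distal points of ankrd1a, ctgfb, amotl2b and wwtr1 lie above all proximal and all middle points, and the yap1 ranges overlap.

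yap1 (ENSDARG00000068401), the coactivator itself, was called in none of the comparisons. Its 5 proximal libraries held 2784, 2778, 2735, 2846 and 2688 normalized counts. The middle libraries held 2753, 2739, 2825, 2980.2 and 3104. The distal libraries held 2495, 2474, 2863, 2789 and 2847. The 3 ranges overlapped, with the highest values in the middle region and the 2 lowest in the distal one. The means were 2766 ± 58.6, 2880.3 ± 157 and 2694 ± 193 (SD, n = 5), and the distal to proximal log2 difference was -0.04 with a standard error of 0.06 in limma. By DESeq in the authors' deposited tables the adjusted p was 0.547 distal against middle, 0.872 distal against proximal and 0.894 middle against proximal.

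wwtr1 (ENSDARG00000067719), which encodes the Yap paralog Taz, was called higher distally than proximally, with the middle mean in between. Proximal libraries held 806, 749.9, 673, 683 and 746 normalized counts. Middle libraries held 758, 850.4, 862, 841 and 842. Distal libraries held 988, 893, 1044, 1026 and 992. All distal values were above all middle and proximal values, while the proximal and middle ranges overlapped through proximal library 1 and middle library 1. The means were 732 ± 54.6, 831 ± 41.6 and 989 ± 58.4, and distal against proximal the fold was 1.35 (log2 0.43, adjusted p = 0.000604 by DESeq in the authors' deposited table). Distal against middle, that table gave a fold of 1.18 with an adjusted p of 0.0883, which was not called, whereas limma on the recovered counts gave 0.25 ± 0.07 (SE, log2) with an adjusted p of 0.00557. Middle against proximal, the log2 fold of 0.19 was not called (adjusted p = 0.431 in the authors' deposited table, 0.0751 in limma). Limma called it without middle library 1 (adjusted p = 0.0491) or without proximal library 1 (adjusted p = 0.0429).

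Because both coactivators were measured in every library, their ratio could be tested apart from library scaling. The wwtr1 to yap1 ratio ranged from 0.240 to 0.290 proximally, from 0.271 to 0.310 in the middle and from 0.348 to 0.396 distally. Every distal ratio exceeded every ratio of the other two regions. On the log2 scale (normalized counts + 1) the distal ratio was 0.48 above the proximal one and 0.35 above the middle one, each with an adjusted p of 0.0119 in a two-sided exact permutation test of 5 against 5 libraries, Benjamini-Hochberg adjusted over 12 tests. The unadjusted p of 0.00794 is the smallest that 5 against 5 libraries allow. The middle against proximal difference of 0.13 missed the threshold (adjusted p = 0.121 in the same exact permutation test). A ratio within a library shows that wwtr1 changed more than yap1, not that yap1 was constant.

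Of the 7 tead and vgll4 genes matched in the tables, which encode the DNA-binding partners of Yap and a competitor for them, 1 was called higher and 1 lower distal against proximal, or 28.6% where 36% of all genes were called. tead3a averaged 377 ± 67.3 normalized counts proximally and 604 ± 61.8 distally, and its fold of 1.60 was called (adjusted p = 1.98e-07, DESeq in the authors' deposited table). tead1b went the other way, from 809.9 ± 101 to 592 ± 64.3, with a distal level 0.731 of the proximal one (adjusted p = 0.000358 in the authors' deposited table). For both genes the distal and proximal library ranges did not overlap. Distal against middle, tead1a and tead3a were called higher and tead1b lower, or 42.9% beside 26.2% of all genes. None of the 7 was called middle against proximal, where 7.31% of all genes were called. In limma the call of tead1a held in all 15 fits that each left out 1 library (adjusted p up to 0.0430). That of tead3a held in 11 and was lost without distal library 1 or 5 or middle library 1 or 4 (adjusted p up to 0.0704), and that of tead1b held in 11 and was lost without distal library 5 or middle library 1, 2 or 3 (up to 0.0739).

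Of the regulators, the 2 amotl2 genes moved apart. amotl2b (ENSDARG00000061948) held 707, 1380.3, 1094, 1014 and 970.4 normalized counts in the proximal libraries. Its middle libraries held 1726, 1266, 1398, 1621 and 1173. Its distal libraries held 3363, 3533, 3626, 4129.9 and 2685. Each distal library was above each library of the other regions, the lowest distal value being 2685 and the highest of the others 1726. The means were 1033 ± 242, 1437 ± 234 and 3467 ± 522, a 3.36-fold distal to proximal difference (log2 1.75, adjusted p = 4.66e-23) and a 2.40-fold distal to middle difference (log2 1.26, adjusted p = 6.43e-15) by DESeq in the authors' deposited tables. Middle against proximal the libraries overlapped, and the 1.39-fold difference was not called in the authors' deposited table (adjusted p = 0.0861), whereas limma called it at 0.49 ± 0.15 (SE, log2; adjusted p = 0.0348) and lost that call when middle library 1, 3 or 4 or proximal library 1, 4 or 5 was left out (adjusted p up to 0.0933). amotl2b was the only one of the 9 genes listed among the 1144 genes of the authors' deposited table of monotonic genes. Its score ranked 126 from the highest down, where 631 of the 1144 genes had a score above 0.

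amotl2a (ENSDARG00000061923), its duplicate, had its lowest mean in the middle of the fin. The proximal libraries held 977, 858, 676, 939.9 and 888 normalized counts. The middle ones held 489, 741, 508, 463 and 790.0, and the distal ones 773, 592, 756, 602 and 925. Middle libraries fell into 3 low and 2 higher values, and the latter lay within the proximal and distal ranges. The means were 868 ± 117, 598 ± 155 and 729.8 ± 138, and amotl2a was called lower middle against proximal (log2 -0.54, adjusted p = 0.0337, DESeq in the authors' deposited table). In limma this call held in 11 of the 15 fits that each left out 1 library, and was lost without middle library 1, 3 or 4 or proximal library 4, with an adjusted p of up to 0.0570. Distal against proximal (log2 -0.25, adjusted p = 0.209) and distal against middle (log2 0.28, adjusted p = 0.356) it was not called in the authors' deposited tables, though limma called the latter without middle library 5 (adjusted p = 0.0416).

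The amotl2b to amotl2a ratio climbed along the fin, from a mean of 1.22 ± 0.385 proximally to 2.60 ± 0.968 in the middle and 4.97 ± 1.52 distally. Distal ratios, from 2.90 to 6.87, lay above all proximal ratios, from 0.723 to 1.62, but overlapped the middle ones, from 1.48 to 3.53. Distal against proximal the log2 ratio differed by 2.02 (adjusted p = 0.0119, exact permutation test). Middle against proximal it differed by 1.06 (adjusted p = 0.0381, exact permutation test), and distal against middle by 0.97 (adjusted p = 0.0317, exact permutation test). Each of these last calls held in 8 of the 15 repeats with 1 library left out. The repeats that dropped a library of the position not compared left the tested ratios unchanged, and every loss came from a compared library. Middle against proximal the call was lost without proximal library 1, 4 or 5 or middle library 1, 2, 3 or 4. Distal against middle it was lost without middle library 2, 3 or 5 or distal library 1, 2, 3 or 4. The adjusted p of the exact permutation test reached 0.0762 and 0.0635.

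Of the 7 Hippo kinase core genes 1 was called distal against proximal, lats2, which encodes a kinase that phosphorylates Yap, and it was higher by 1.37-fold (1855 ± 137 to 2537 ± 80.2 normalized counts, adjusted p = 0.000147, DESeq in the authors' deposited table). Of 18 upstream regulators 5 were called higher and 0 lower, or 27.8%. That share was below the 36% of all genes called in either direction and above the 17.9% called higher, while 18.1% were called lower. The largest difference was that of dchs1a, which encodes a Dachsous cadherin, a ligand of the cadherin Fat: its libraries held 753 to 936 normalized counts proximally, 1279.6 to 1660.0 in the middle and 5027 to 6315 distally. These 3 ranges did not overlap, and dchs1a was called in each comparison, by 6.69-fold distal against proximal (adjusted p = 4.41e-115), 1.74-fold middle against proximal (adjusted p = 6.65e-11) and 3.82-fold distal against middle (adjusted p = 4.25e-70) in the authors' deposited tables. Its duplicate dchs1b was called by 1.27-fold distal against proximal. nf2a, a gene for the Hippo-activating junctional protein Merlin, was 1.92-fold higher distally, ajuba, an inhibitor of Lats kinases, 1.59-fold, and wwc1, the gene for the scaffold Kibra, 1.28-fold, all with non-overlapping ranges and adjusted p from 9.63e-11 to 0.00477 in the authors' deposited table. The same lats2 and the same 5 upstream genes were also called higher distal against middle, a comparison that reuses the distal libraries. The shares there were 14.3% of the kinase core and 27.8% of the upstream regulators, beside 26.2% of all genes.

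**Figure D2:**
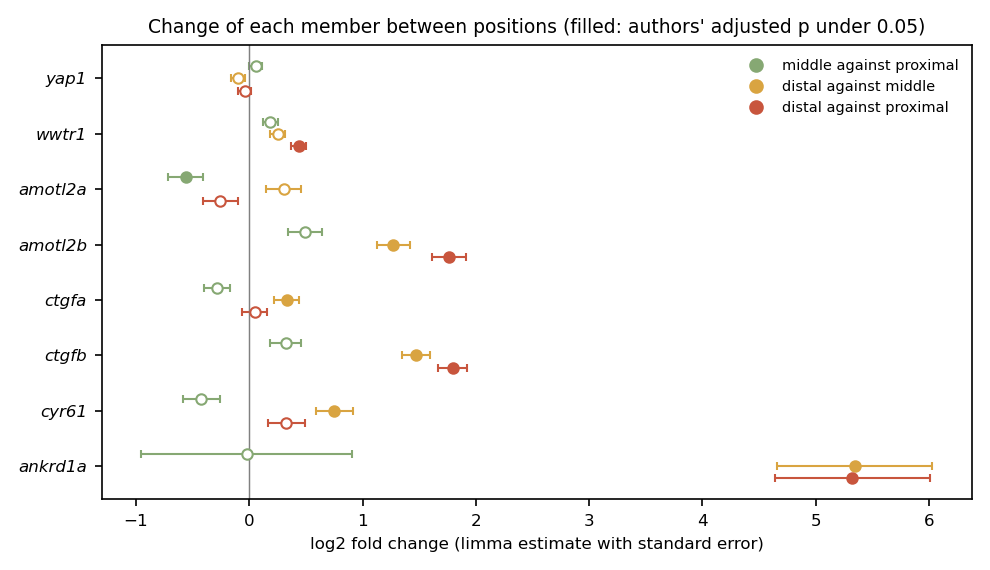
Log2 fold change of 8 of the 9 genes in the 3 comparisons, as estimated by limma from the recovered counts (points) with its standard error (bars); filled points have an adjusted p under 0.05 in the authors' deposited tables. ankrd1b had too few reads for the fit; ankrd1a, ctgfb and amotl2b show distal differences above 1 on the log2 scale, and ankrd1a has the widest bars.

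The CCN genes encode secreted proteins that bind integrins and matrix. ctgfb (ENSDARG00000104292) held 172, 218, 213, 251 and 199.7 normalized counts in the proximal libraries. It held 299, 321, 238, 246 and 219.98 in the middle libraries and 709, 693, 907, 786 and 585 in the distal ones. Each distal library exceeded each of the other 10, while proximal and middle libraries overlapped. The means were 211 ± 28.8, 265 ± 43.2 and 736 ± 119. Distal against proximal the fold was 3.49 (log2 1.81, adjusted p = 1.28e-23), and distal against middle it was 2.76 (log2 1.47, adjusted p = 9.37e-17), both by DESeq in the authors' deposited tables. The middle against proximal log2 fold of 0.33 was not called (adjusted p = 0.172 in the authors' deposited table). In the 15 limma fits that each left out 1 library the distal to proximal log2 fold of ctgfb stayed between 1.72 and 1.88.

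ctgfa (ENSDARG00000042934), the duplicate of ctgfb, was called in the distal against middle comparison alone. It held 1061, 1499.8, 1313, 1404 and 1061 normalized counts proximally and 1118, 1237, 916, 917 and 1006 in the middle. Distally it held 1361, 1076, 1251, 1320.5 and 1509. All 3 ranges overlapped, and the middle libraries were on average the lowest, at 1039 ± 138 against 1268 ± 199.7 proximally and 1303 ± 159 distally. Distal against middle the 1.25-fold difference was called (log2 0.32, adjusted p = 0.0231, DESeq in the authors' deposited table), and in limma this call held in 9 of the 15 fits with 1 library left out, being lost without distal library 1, 4 or 5 or middle library 3, 4 or 5 (adjusted p up to 0.0776). Distal against proximal the log2 fold was 0.04 (adjusted p = 0.830 in the authors' deposited table), with a limma standard error of 0.11, and it was -0.03 when libraries were scaled by total counts. Middle against proximal it was -0.29 (adjusted p = 0.239 in the authors' deposited table).

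The ctgfb to ctgfa ratio separated all 3 positions. It ranged from 0.145 to 0.188 proximally, from 0.219 to 0.268 in the middle and from 0.388 to 0.725 distally, with no overlap between neighbours. On the log2 scale it rose by 0.61 from proximal to middle and by 1.14 from middle to distal, each with an adjusted p of 0.0119 in the exact permutation test. Neither gene alone was called between proximal and middle. How reads shared by duplicate genes were counted is not given in the sources used here.

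cyr61 (ENSDARG00000023062) had its lowest mean in the middle. Its proximal libraries held 1815, 1933, 1527, 1739.9 and 2234 normalized counts. Its middle libraries held 1303, 2107, 1104, 1167 and 1360.1, and its distal libraries 3293, 1799, 2206, 2235 and 2236. Middle library 2 stood with the proximal and distal libraries, and the other 4 middle libraries lay below all of them. The means were 1849.9 ± 261, 1408 ± 404 and 2353 ± 557. Distal against middle the 1.66-fold difference was called (log2 0.73, adjusted p = 0.0125, DESeq in the authors' deposited table). Distal against proximal (log2 0.35, adjusted p = 0.167) and middle against proximal (log2 -0.39, adjusted p = 0.242) it was not called there. Without middle library 2, limma called the first at an adjusted p of 0.0398 and the second at 0.00991, and it called the first without distal library 2 too. Middle library 2 is not part of the distal against proximal comparison, and the limma log2 fold there was 0.33 with and without it.

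Among 7 other CCN genes matched, 6 were present in the distal against proximal table, where 2 were called higher and 2 lower, beside 17.9% and 18.1% of all genes. cyr61l2 rose from 61.2 ± 20.1 to 173 ± 16.3 normalized counts (2.83-fold, adjusted p = 5.15e-18) and wisp1b from 124 ± 22.1 to 291 ± 42.8 (2.35-fold, adjusted p = 2.58e-14), by DESeq in the authors' deposited table. wisp2 (ENSDARG00000077882), whose product is a CCN protein that lacks the C-terminal domain of the others, fell in steps, from 440.3 ± 112 proximally through 248 ± 30.6 in the middle to 91.8 ± 14.2 distally. Its distal level was 0.209 of the proximal one (adjusted p = 1.20e-13 in the authors' deposited table), it was called lower in all 3 comparisons, and the 3 library ranges did not overlap. A second gene ID with the symbol wisp2 (ENSDARG00000037155) was also called lower distally, from 21.7 ± 5.40 to 6.81 ± 2.53 normalized counts. The CCN genes thus included both rising and falling members.

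ankrd1a (ENSDARG00000075263), an ankyrin-repeat gene induced by Yap and by mechanical strain and best known from muscle and heart, had most of its reads in the distal libraries, 295 against 13 in the proximal and 7 in the middle ones. The recovered counts were 2, 0, 0, 1 and 10 reads in the proximal libraries and 0, 1, 2, 3 and 1 in the middle ones. The distal libraries held 55, 73, 46, 31 and 90 reads, or 33.1 to 85.1 normalized counts. The lowest distal library, with 31 reads, lay above the highest other library, with 10. The means were 2.44 ± 3.91, 1.33 ± 1.11 and 63.4 ± 21.8 normalized counts. Distal against proximal the fold was 26.0 (log2 4.70, adjusted p = 2.73e-15), and distal against middle it was 47.4 (log2 5.57, adjusted p = 8.00e-18), by DESeq in the authors' deposited tables. Proximal library 5 held 10 of the 13 proximal reads, and in limma the distal to proximal log2 difference was 5.32 ± 0.68 (SE) with it and 5.995 without it. With 13 and 7 reads in all, no difference between proximal and middle was detectable at this depth (adjusted p = 0.917 in the authors' deposited table).

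ankrd1b (ENSDARG00000076192) had few reads everywhere. It had 8, 2, 9, 8 and 9 reads in the proximal libraries, 7, 9, 1, 10 and 7 in the middle ones and 7, 3, 2, 4 and 4 in the distal ones. The ranges overlapped, and the means were 6.89 ± 2.80, 6.43 ± 3.38 and 4.41 ± 2.38 normalized counts. It was not called in any comparison of the authors' deposited tables (adjusted p = 0.582 distal against middle, 0.441 distal against proximal and 1 middle against proximal). It was the only one of the 9 that did not reach 10 reads in 5 libraries, the minimum for the limma fit, and ankrd1a reached it by its distal libraries and 1 proximal library. The ankrd1a to ankrd1b ratio was 0 to 1.11 proximally, 0 to 2.00 in the middle and 7.75 to 24.3 distally, and the distal ratio differed from each of the others (adjusted p = 0.0119, exact permutation test), but not the middle from the proximal one (adjusted p = 0.921 in the same exact test). Proximal and middle ratios rest on at most 10 reads of either gene per library. The distal to proximal log2 ratio difference of 5.27 largely repeats the 5.32 of ankrd1a alone in limma.

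**Figure D3:**
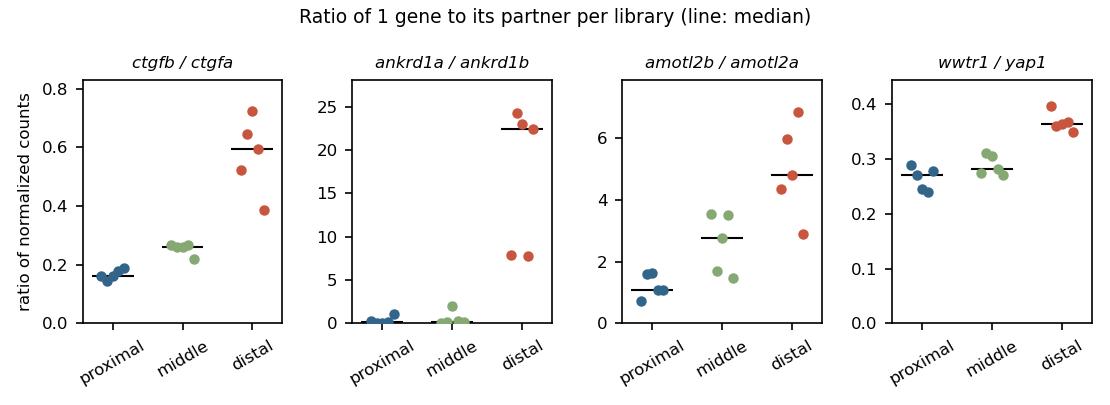
Ratio of normalized counts of 1 gene to its paralog in each library (points) by position, with the median as a line; axes are linear from 0. The ctgfb to ctgfa ratio forms 3 separate levels, and the other ratios are higher distally than proximally in every library.

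Library ranges gave the same picture as the calls in part. Distal and proximal ranges did not overlap for 4 of the 9 genes, where they did not overlap for 30.7% of 23462 genes. Distal and middle ranges did not overlap for 4 (22.7% of all genes), and middle and proximal ranges for 0 (9.22%). The genes with distal libraries above all others were wwtr1, amotl2b, ctgfb and ankrd1a in both cases, so that wwtr1 was added and ctgfa and cyr61 dropped relative to the distal against middle calls. By limma on the recovered counts, 4 of the 8 genes that could be fitted were called distal against proximal (51.5% of all genes), 2 middle against proximal (13.8%) and 6 distal against middle (38.7%).

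Other genes known as conserved Yap targets did not share one direction. Of the 17 matched, 4 were called higher and 7 lower distal against proximal (36% of all genes called). Middle against proximal 0 were called higher and 4 lower (7.31% of all genes), while distal against middle 8 of 16 were called higher and 3 lower (26.2% of all genes). Among the higher ones, igfbp3, an insulin-like growth factor binding protein, went from 546 ± 29.5 to 1464 ± 169 normalized counts (2.68-fold, adjusted p = 1.49e-33, DESeq in the authors' deposited table). nuak2, a stress-responsive kinase, was 1.57-fold higher (adjusted p = 0.0185), crim1, a transmembrane binder of Bmp ligands, 1.47-fold (adjusted p = 3.09e-06), and f3b, a tissue factor gene, 1.38-fold (adjusted p = 0.00488) in the authors' deposited table. Among the lower ones, nt5e, the ectonucleotidase CD73, averaged 3841 ± 777 proximally, 4287 ± 439 in the middle and 1694 ± 329 distally (distal 0.441 of proximal, adjusted p = 6.49e-08), and gadd45aa, a growth arrest gene, was at 0.447 of its proximal level (adjusted p = 4.80e-10), both in the authors' deposited table. dock5, myof and f3a were called lower at 0.695, 0.700 and 0.743 of the proximal level. f3a and f3b thus were called in opposite directions distal against proximal, and the difference between them was not tested. Distal against middle both were called higher, f3a by 1.42-fold (adjusted p = 0.000621) and f3b by 1.77-fold (adjusted p = 3.02e-06), by DESeq in the authors' deposited table.

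**Figure D4:**
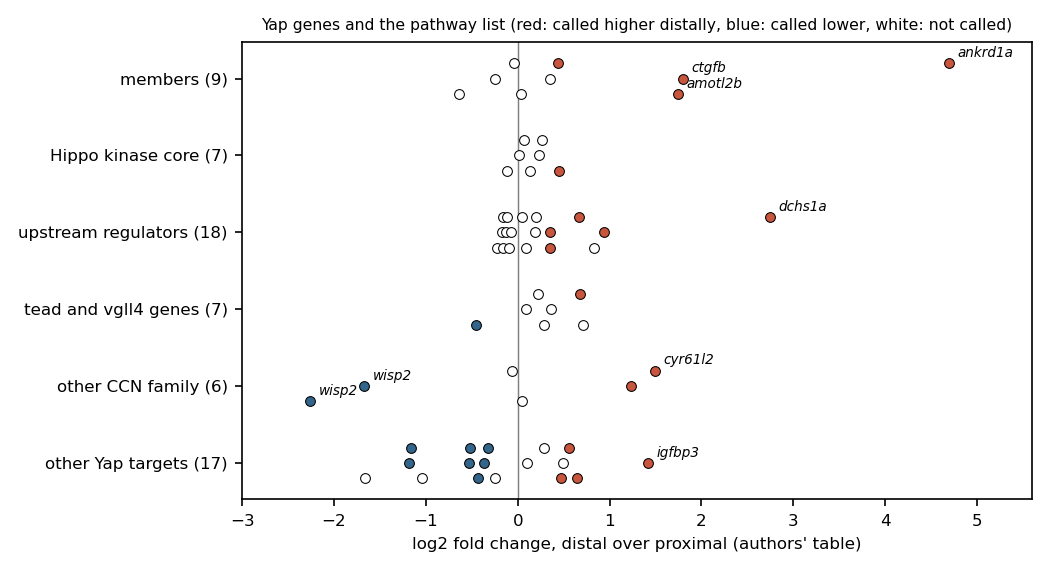
Log2 fold change distal over proximal in the authors' deposited table for the 9 genes and the pathway genes of each list present in it (1 point a gene; number of genes in brackets); red points were called higher, blue lower and white not called. Genes on the right include ankrd1a, dchs1a, ctgfb and amotl2b, the 2 wisp2 genes lie farthest left, and the Yap target list has points on both sides of 0.

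Over the whole pathway list of 56 matched genes, 13 were called higher and 10 lower of the 55 in the distal against proximal table, 1 higher and 5 lower of 56 middle against proximal, and 18 higher and 6 lower of 55 distal against middle. The shares called, 41.8%, 10.7% and 43.6%, stand beside the 36%, 7.31% and 26.2% of all genes given above. The median log2 fold of the list was 0.09, -0.02 and 0.10. The largest distal to proximal fold among the genes called in the list was that of dchs1a.

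The 3 genes with the pattern most like that of each of ankrd1a, ctgfb and amotl2b were taken by Pearson's r of log2 (normalized counts + 1) over the 15 libraries, among 16456 genes. For ctgfb these were igfbp3 (r 0.99), rtfdc1 (r 0.98) and angpt2a (r 0.98), a gene for an angiopoietin, which went from 23.4 ± 6.72 proximally and 27.6 ± 3.87 in the middle to 173 ± 32.5 normalized counts distally. For amotl2b they were tlcd2 (r 0.99), maff (r 0.98), a small Maf transcription factor gene, and ube2z (r 0.98). For ankrd1a they were gdf6a (r 0.97), a Bmp-family ligand gene with 74.5 ± 24.6, 74.0 ± 6.26 and 295 ± 31.9 normalized counts along the fin, ENSDARG00000100739 (r 0.96) and tiam1b (r 0.96), a Rac activator gene. The libraries of a position share it, so r mostly reflects the contrast of distal libraries with the rest, and 300 genes had an r above 0.9 with ankrd1a, 876 with ctgfb and 685 with amotl2b.

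Markers of other cell types and of an acute cell response were read beside these genes. Of 22 immediate early genes, which respond quickly to handling and, like several Yap targets, to serum and stretch, 8 were called higher and 2 lower distal against proximal, or 45.5%, beside the 36% of all genes. None was at 0, and their summed level was 30058 to 34883 normalized counts proximally, 30581 to 40953 in the middle and 40557 to 52212 distally, so that every distal library lay above every proximal one and all but the lowest above the middle ones too. Within that list fosb was 3.81-fold and jun 1.61-fold higher distally, while egr2b and atf3 were lower (0.373 and 0.523 of the proximal level, authors' deposited table). Their part in the differences of ankrd1a, ctgfb, amotl2b and cyr61 was not tested.

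Muscle markers bear on ankrd1a, since muscle is the tissue best known for it. Of the 13 skeletal muscle genes that the distal against proximal table holds, 5 were called (38.5%, beside 36% of all genes), mb (myoglobin) as higher and ckma, ttna, mylz3 and neb as lower. mb averaged 124 normalized counts proximally and 419.98 distally (3.38-fold), and the distal levels of the other 4 were 0.0913, 0.200, 0.546 and 0.740 of the proximal ones in the authors' deposited table. The sum of these 13 genes was 714 to 857 normalized counts proximally, 658 to 1024 in the middle and 682 to 812 distally, so that the 3 ranges overlapped. In the authors' deposited table mb was 124 of a summed mean of 759 proximally and 419.98 of 721 distally. The overlapping sums thus combine the rise of mb with the fall of ckma, ttna, mylz3 and neb. Distal means ran from 1.45 (actc1b) to 419.98 (mb) in the authors' deposited table, with acta1a at 7.01, mylpfa at 2.21, ckmb at 61.2 and ttna at 59.7. None of the 13 was at 0 at any position. Of 12 smooth muscle and mural genes 6 were called higher and 2 lower (acta2 and myh11a), with sums of 10200 to 12591, 9707 to 11398 and 10660 to 11973. Most of these sums was notch3, which was not called. In the authors' deposited table notch3 averaged 8934 of a summed 10604 normalized counts proximally and 9604 of 11183 distally. The sums thus say little about the other genes of this list.

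Of 10 osteoblast markers 6 were called higher distal against proximal and 1, runx2b, lower, beside 17.9% and 18.1% of all genes, and runx2a, bglap and spp1 were not called. Their sums were 3561 to 7611, 3223 to 5037 and 7576 to 10963 normalized counts for the proximal, middle and distal libraries, so that the distal range overlapped the proximal but not the middle one. In the authors' deposited table col10a1a averaged 2588 of a summed 4993 normalized counts proximally and 4953 of 8747 distally. The osteoblast sums thus rest in large part on this 1 gene. Of 13 endothelial markers 7 were called higher and 4 lower, with sums of 3279 to 4288, 3249 to 3694 and 4247 to 4796. The lower ones were cdh5, flt1, vwf and tek, at 0.0915, 0.416, 0.518 and 0.634 of the proximal level in the authors' deposited table. There kdr and kdrl averaged 1178 and 901 of a summed 3707 normalized counts proximally, and 1443 and 937 of 4396 distally. Of these, kdr was called higher and kdrl was not called. Of 10 basal epidermal markers 4 were called higher and 1, krt5, lower. krt5 averaged 232713 normalized counts proximally and 107569 distally (adjusted p = 4.08e-08 in the authors' deposited table). Summed over all 10, the means of the authors' deposited table were 504126 proximally and 409687 distally. The abundant krt5, krt15 and itgb4 had no single solution per library, and without them the sum of the other 7 went the opposite way, with 74999 to 97233, 104686 to 132492 and 104567 to 133503. Among these 7, col17a1b averaged 19496 normalized counts proximally and 42271 distally in the authors' deposited table. There itga6b, which was not called, averaged 43141 and 45185. The distal rise of this sum thus rests in large part on col17a1b.

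Of 8 fin tissue markers, chosen for ray bone, epidermis and actinotrichia, 6 were called higher and 1, krt5, lower distal against proximal. Of all genes 17.9% were called higher and 18.1% lower. The actinotrichia gene and2 was at 0 in all proximal libraries, and and1 averaged 6.55 normalized counts there in the authors' deposited table. Summed over all 8, the means of the authors' deposited table were 336035 proximally and 248862 distally. Without krt5 and krt4, which had no single solution per library, the sums were 23620 to 31608, 28023 to 35542 and 32589 to 44324, again in the opposite direction. In the authors' deposited table col1a1a averaged 18994.5 normalized counts proximally and 24273 distally. These sums thus rest in large part on this 1 gene. This list shares sp7 and col10a1a with the osteoblast list and tp63 and krt5 with the epidermal one. Among the other markers with a recovered count in every library, none was at 0 over a whole position. The part of these cell types in the differences of the 9 genes was not tested.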

How the data were processed

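Total RNA of 15 fin libraries was sequenced. Per the submitters' processing notes, TopHat2 2.0.13, HTSeq and DESeq were used with the GRCz10 genome, with no role or order given. The gene annotation, counting settings and strand were not given in the sources used here. Per the file headers, the authors' pairwise tables hold 1 signal value per position, a fold (ratio of the means), its log2 and DESeq p-values, raw and adjusted over the table. The authors' table of monotonic genes gives a score whose definition is not stated, and its signal columns are headed rpm but their sums are too large for that unit, so they were used only as means.

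The deposited position values carry 15 digits. They could be written as means of whole reads divided by 1 size factor per library, and lattice reduction gave the reads of each library: 23462 of 23495 genes measured at all positions had a single solution (33 did not), among them all 9 genes. The monotonic table was not used to recover reads. Its size factors, which gave the normalized counts per library, were fitted on every other gene of it. The means of its remaining genes were met within 1e-13 in 570 of 570 proximal, 570 of 570 middle and 569 of 569 distal cases. The procedure was tested on simulated data. Recovered libraries carry no replicate number of the labels. No library was a duplicate of another of the same position, and pairs across positions were not compared in this way. As no column holds counts, edgeR's count test was not used.

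The authors' adjusted p under 0.05 is the call, and Python 3.11.15, scipy 1.17.1 and limma 3.58.1 (voom, R 4.3.3, at least 10 reads in at least 5 libraries, adjusted over all genes) gave the rest. Ratios were tested on log2 of normalized counts + 1. The biological replicates are pools of fish, per the labels' design. Alternatives were limma with no filter, with total-count scaling, with 2 positions only and without each library, a threshold of 0.01 and, for ratios, a pseudocount of 0.5 and raw reads.

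The 9 genes, the pathway list (Hippo kinases, upstream regulators, tead and vgll4 genes, other CCN genes, other Yap targets) and the 7 marker lists were chosen with earlier results of these data known. Named are all 9 genes, pathway genes called distal against proximal with a mean of at least 20 (at most 5 per direction and list), and 3 like genes for each of the 3 genes with the largest distal folds; tead1a, the less abundant wisp2 gene and the marker genes were named after their values were seen. Gene lengths were not used, so levels are not compared between genes except as ratios whose change is tested. No sequences are shown.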

Additional observations from a re-analysis of the deposited data

Results flagged for a closer look

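In 4 of 27 groups of 5 libraries (9 genes at 3 positions) 1 library stood farther from the others than Dixon's 95% limit allows; chance gives about 1 group in 20. For cyr61, middle library 2 was the highest at 2107 normalized counts, where the other 4 held 1104 to 1360.1. For wwtr1, middle library 1 was the lowest at 758, where the others held 841 to 862. For ankrd1a, proximal library 5 was the highest at 9.29, which is 10 reads, where the others held 0 to 1.95. For ankrd1b, proximal library 2 was the lowest at 1.94, which is 2 reads, where the others held 7.62 to 8.71. These are 4 different libraries.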

How the results depend on the processing

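No paired analysis was possible because neither the deposited means nor the recovered libraries carry the replicate numbers of the labels. Depth limits ankrd1b at all positions and ankrd1a outside the distal region. Distal against proximal the 4 calls among the 9 genes held in every limma fit, with 4 to 5 called over the fits that each left out 1 library. Middle against proximal the count was 1 in the authors' table, 0 at an adjusted p under 0.01, 2 in each of the limma fits (the authors' scale, no filter, total counts, 2 positions only), and 0 to 3 when 1 library was left out, with 0 without middle library 3 or 4 or proximal library 4 and 3 without middle library 2. Distal against middle the count was 5, 3 at an adjusted p under 0.01 (ctgfa and cyr61 were lost) and 5 to 6 with 1 library left out. The pathway list count was 6 middle against proximal and 10 in each of the 4 limma fits, 7 to 12 with 1 library left out, where the other comparisons gave 26 to 32 and 23 to 26 beside 23 and 24 by the authors' test. Limma on the recovered counts tested 51 of the 56 genes and called more of all genes too. It called 13.8% of tested genes middle against proximal, 51.5% distal against proximal and 38.7% distal against middle. The authors' test called 7.31%, 36% and 26.2%. The number of paralog ratios past the threshold stayed at 4 distal against proximal, was 3 to 4 distal against middle and 1 to 2 middle against proximal. Signs turned for values that were not called: ctgfa distal against proximal was -0.0316 with total-count scaling and -0.0137 to 0.114 with 1 library left out, ankrd1a middle against proximal was -0.45 to 0.65, and the ankrd1a to ankrd1b log2 ratio middle against proximal was -0.48 to 0.53; the cause was not tested. Scaling by total counts moved the median log2 fold of all genes distal against proximal from -0.02 to -0.09, and with it ctgfa (log2 0.28) and tead3a (log2 0.30) were no longer called distal against middle.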
